A study of Mus musculus with 8 samples.

Results

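The 8 genes described here encode cell surface proteins that hold cells to one another: the neural cell adhesion molecules Ncam1 and Ncam2, the cadherins Cdh2, Cdh11 and Cdh13, and the immunoglobulin-family receptors Alcam, Vcam1 and Icam1. They are 8 of 17097 genes measured in dermal fibroblasts of mice fed either a diet high in fat (HFD) or normal food (normal diet, ND). The set was selected on the diet comparison itself, because Ncam2 showed the second largest fall among the genes that passed the diet comparison, and the other members were added as relatives in function. For that reason the members' differences between diets are given below as a description, without p-values.

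The fibroblasts came from female mice that were 2 months old when the diets began and that were fed for 6 months, then killed on the same day. The HFD group has 4 arrays and the ND group 4, each taken as a separate mouse. ND 4 is marked as excluded by quality control in the submitters' labels, so HFD 1 to 4 were compared with ND 1 to 3, and ND 4 is given beside them. Dermis without its lower layer was digested with collagenase, and 10000 cells per sample were sorted as positive for Pdgfra and CD34 and negative for CD45, CD117, CD24, CD31 and EpCam, after which the RNA was amplified over 20 cycles. No strain and no diet composition are given in the sources used here.

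Cells of the dermis use several adhesion systems. Cadherins bind the same cadherin on a neighbouring cell in the presence of calcium, and their tails hold catenins that reach the actin cytoskeleton. The NCAM proteins carry immunoglobulin and fibronectin domains and also bind their own kind, mostly without calcium, and are best known from growing and bundling axons. Vcam1 and Icam1 are docking sites for integrins on white blood cells, and inflammatory cytokines raise both through the transcription factor NF-kB in many cell types, fibroblasts among them.

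The probe sets that name only 1 of these genes number 21, and each gene is represented by its brightest one, by the mean of the 7 arrays compared. Values are log2 expression, so a difference of 1 is a doubling. Of the 8 genes, 1 passed the threshold of the fit across all genes (Ncam2, lower in HFD; limma, adjusted p under 0.05), where 5.35% of all genes passed in either direction, 2.73% as lower and 2.62% as higher. The diets had no overlapping arrays in 1 of the 8, again Ncam2, as in 17.9% of all genes. Of the brightest probe sets 4 were higher and 4 lower in HFD, with a median difference of -0.012, beside 0.017 over all genes. Because the diet comparison chose the set, nothing is read from these counts.

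**Figure D1:**
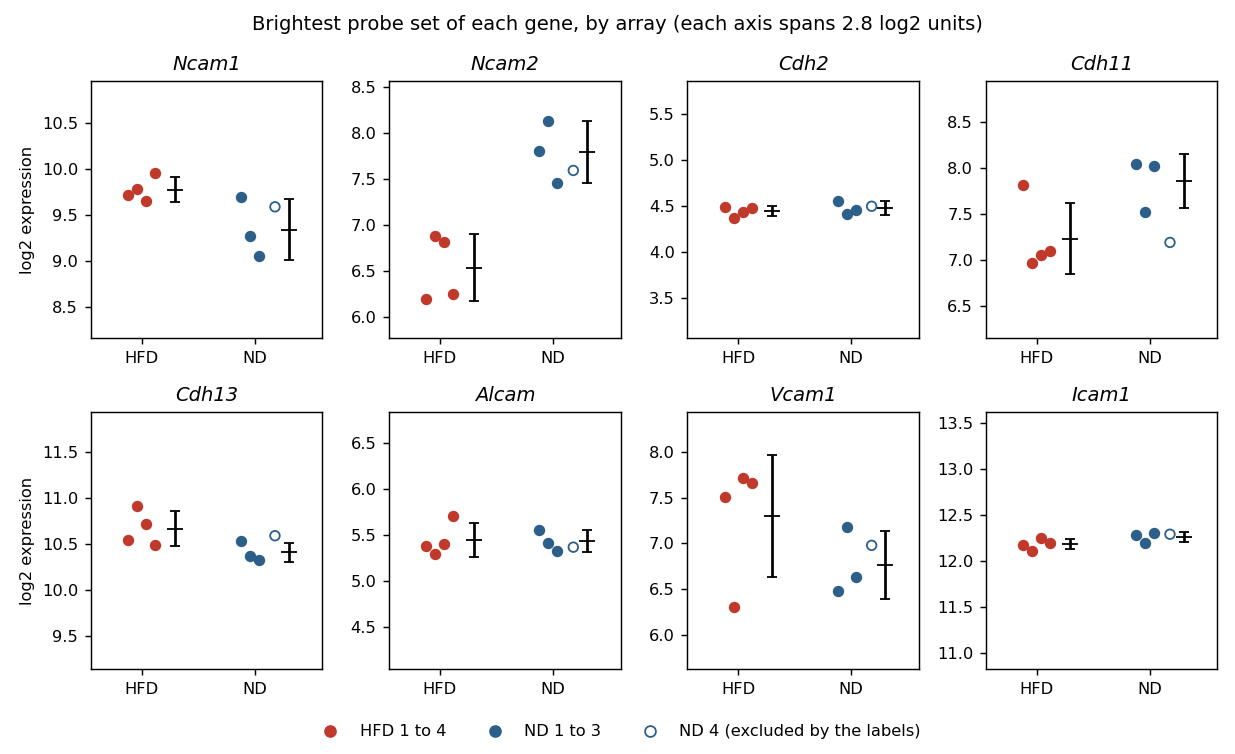
Log2 expression of the brightest probe set of each of the 8 genes (vertical axes, all spanning the same number of log2 units) on the arrays of each diet (horizontal axes). Points are arrays, the open point is ND 4, and bars give the mean and SD of HFD 1 to 4 and ND 1 to 3. Ncam2 is the gene whose HFD arrays (6.19 to 6.88) all lie below the ND arrays (7.45 to 8.13), and Vcam1 has 1 HFD array at 6.31 below all others.

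Ncam2, a homophilic adhesion molecule known for sorting olfactory axons, was lower in fibroblasts of every HFD mouse. Its brightest probe set (1421592_PM_at) stood at 6.19, 6.88, 6.81 and 6.25 in HFD 1 to 4, and at 7.80, 8.13 and 7.45 in ND 1 to 3. No HFD array reached the lowest ND array. The means were 6.53 ± 0.36 (SD, n = 4) in HFD and 7.79 ± 0.34 (SD, n = 3) in ND, a difference of -1.26 log2 with a standard error of 0.20, or 2.4-fold lower in HFD. Among the genes past the threshold this fall ranked 2, between Socs2 (-1.41) and Zfp354c (-1.24). This Ncam2 probe set was of modest brightness. Its mean over the 7 arrays was 7.07, beside 6.77 for the median gene, and its HFD mean lay below that median. In sorted cells analysed in bulk, fewer cells that make a transcript and less of it per cell cannot be told apart.

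Both other Ncam2 probe sets were lower in HFD too. The second brightest (1425301_PM_at) gave 6.06, 7.03, 7.14 and 6.55 in HFD 1 to 4 and 7.5, 7.71 and 7.32 in ND 1 to 3, a difference of -0.82 (SE 0.23). The dimmest (1421593_PM_at) gave 5.71, 6.05, 6.08 and 6.10 in HFD 1 to 4 and 6.71, 6.85 and 6.42 in ND 1 to 3, a difference of -0.67 (SE 0.13). The diets did not overlap in any of the 3 probe sets (over all 8 genes this held for 4 of 21 probe sets, and over the table for 18.1%), and the HFD arrays kept a similar order in the brightest pair, with HFD 2 and HFD 3 above HFD 1 and HFD 4.

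ND 4, which the rule did not use, lay with the other ND arrays in the brightest pair of Ncam2 probe sets. It stood at 7.59 in the brightest, inside the ND range of 7.45 to 8.13, and at 7.33 in the second, inside 7.32 to 7.71. In the dimmest it stood at 6.31, between the highest HFD array at 6.10 and the lowest ND array at 6.42. With ND 4 in the fit the Ncam2 difference was -1.21 and did not pass the threshold, which 6 genes of the table passed in place of 914. Ncam2 also did not pass without HFD 3 (-1.35), without HFD 4 (-1.17) or without ND 3 (-1.43). This placement was not that of most genes past the threshold: ND 4 was nearer to the HFD mean than to the ND mean in 82.3% of the 914 genes past it, and in 60.8% of all genes. Genes past the threshold were chosen for the distance of ND 1 to 3 from HFD, which can place an array outside the fit nearer to HFD in them. The part of that choice in the 82.3% was not tested.

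A sign of RNA quality differed between the diets. The arrays carry control probe sets at both ends of Gapdh and Actb, and the 3′ value minus the 5′ value, averaged over the transcripts, was -0.40, -0.44, -0.375 and -0.44 in HFD 1 to 4, against -0.29, -0.335 and -0.18 in ND 1 to 3, and it was -0.37 in ND 4. With this control difference as a covariate in the fit, the Ncam2 difference was -1.71, and no gene of the table passed the threshold (0 genes in limma, with 604 at an unadjusted p under 0.05). The part of RNA quality in the Ncam2 values was not tested.

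The region upstream of Ncam2 is shown because this gene carries the largest difference of the set. It comes from a set of RefSeq promoter entries that, as used here, covered 3 of the 8 genes (Ncam2, Icam1 and Alcam). The 250 bases before the annotated start lie at chr16:81200447-81200696 (GRCm38.p6, plus strand), with capitals marking CG dinucleotides:
Ncam2 upstream region: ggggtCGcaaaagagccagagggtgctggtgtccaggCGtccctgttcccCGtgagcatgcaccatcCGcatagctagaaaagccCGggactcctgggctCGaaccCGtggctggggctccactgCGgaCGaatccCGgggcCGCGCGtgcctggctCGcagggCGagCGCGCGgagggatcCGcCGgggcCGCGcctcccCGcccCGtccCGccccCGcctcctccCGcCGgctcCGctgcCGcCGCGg
The stretch holds 32 CG dinucleotides and 75.2% G and C. The median over 32851 promoter entries of the same length was 6 CG dinucleotides, and 4.58% of them held as many as Ncam2. No measurement of these arrays bears on DNA methylation.

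Ncam1, the best known neural cell adhesion molecule, which nerve, muscle and some mesenchymal cells also make, gave opposite differences in its brightest probe sets. The brightest (1426864_PM_a_at) stood at 9.72, 9.78, 9.65 and 9.96 in HFD 1 to 4, and at 9.70, 9.27 and 9.05 in ND 1 to 3, a difference of 0.44 (SE 0.14). ND 1 lay inside the HFD range. The second brightest (1426865_PM_a_at) stood at 9.55, 9.27, 8.85 and 9.18 in HFD 1 to 4, and at 9.88, 9.79 and 10.13 in ND 1 to 3, a difference of -0.72 (SE 0.15) with no overlap between diets. The annotation assigns both to the same source sequence, and ND 3 was the lowest array of the 7 in the first and the highest in the second.

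The 4 other Ncam1 probe sets did not settle on a direction. The third and the fourth differed by 0.04 (SE 0.11) and -0.03 (SE 0.08), with the diets overlapping. The fifth (1421966_PM_at) was dim and spread widely, at 6.39, 5.97, 5.47 and 5.49 in HFD 1 to 4 and 6.23, 6.12 and 6.71 in ND 1 to 3, a difference of -0.52 (SE 0.22). The sixth, dimmer still, differed by 0.07 (SE 0.07). The mean of all 6 probe sets differed by -0.12, so the sign of the Ncam1 difference depends on which probe sets represent it. Where on the transcript each probe set lies was not analysed here.

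Among 3080 genes with at least 2 probe sets at or above the median gene, the differences of a gene's probe sets spanned a median of 0.26 log2. The Ncam1 probe sets of that brightness spanned 1.16, a span that 0.617% of those genes reached. Cdh13 spanned 0.65, reached by 9.58%, and Ncam2 spanned 0.45, reached by 24.2%, with both probe sets of the same sign.

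**Figure D2:**
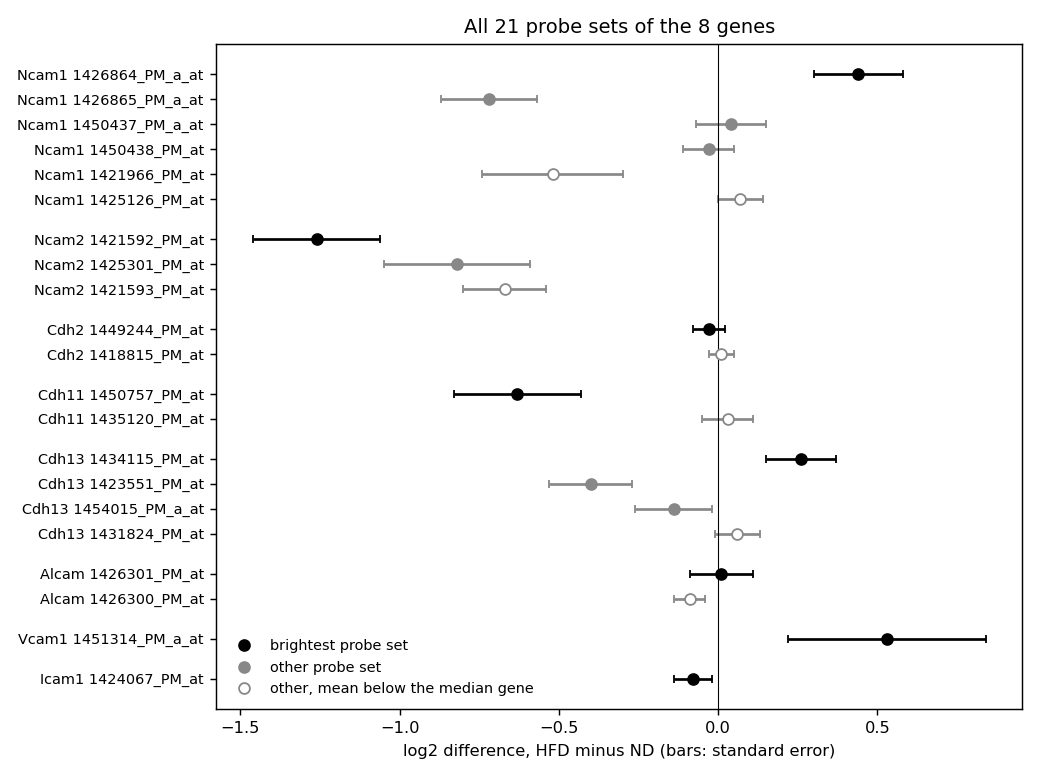
Difference in log2 expression, HFD minus ND (horizontal axis, bars give the standard error), for all 21 probe sets of the 8 genes, ordered by brightness within each gene. The 3 Ncam2 probe sets lie at -1.26, -0.82 and -0.67, while the brightest pair of Ncam1 lies at 0.44 and -0.72 and that of Cdh13 at 0.26 and -0.40.

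Cdh13, or T-cadherin, lacks the usual cadherin tail, sits on the membrane by a lipid anchor and binds the fat cell hormone adiponectin. Its brightest probe set (1434115_PM_at) stood at 10.54, 10.91, 10.72 and 10.49 in HFD 1 to 4, and at 10.53, 10.37 and 10.33 in ND 1 to 3, a difference of 0.26 (SE 0.11). HFD 4 lay below ND 1, so the diets overlapped. The second brightest (1423551_PM_at) stood at 10.06, 10.34, 10.15 and 9.75 in HFD 1 to 4 and at 10.53, 10.31 and 10.58 in ND 1 to 3, a difference of -0.40 (SE 0.13) in the other direction. The third, also bright, differed by -0.14 (SE 0.12), and the fourth, near the bottom of the scale at a mean of 4.23, by 0.06 (SE 0.07).

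In both Ncam1 and Cdh13 the gap between the brightest and the second brightest probe set separated the diets. For Ncam1 the gap was 0.17, 0.51, 0.80 and 0.78 log2 in HFD 1 to 4, against -0.18, -0.52 and -1.08 in ND 1 to 3. For Cdh13 it was 0.48, 0.57, 0.57 and 0.74 in HFD 1 to 4, against 0.00, 0.06 and -0.25 in ND 1 to 3. ND 4, with gaps of 0.21 for Ncam1 and 0.60 for Cdh13, lay inside the HFD range in both, as the only ND array with a control 3′ minus 5′ difference below -0.335. ND 3 had the lowest gap of both genes and the control difference nearest to 0. The Ncam1 gaps did not follow the control difference throughout. ND 2, at a control difference of -0.335, had a lower Ncam1 gap than ND 1, at -0.29. HFD 3, the HFD array with the control difference nearest to 0, at -0.375, had the largest Ncam1 gap, 0.80. These gaps were looked up after the probe set values were seen, and the part of RNA quality in them was not tested. A gap that differs between arrays shows that the probe sets did not vary alike, and does not say which of them followed the gene.

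**Figure D3:**
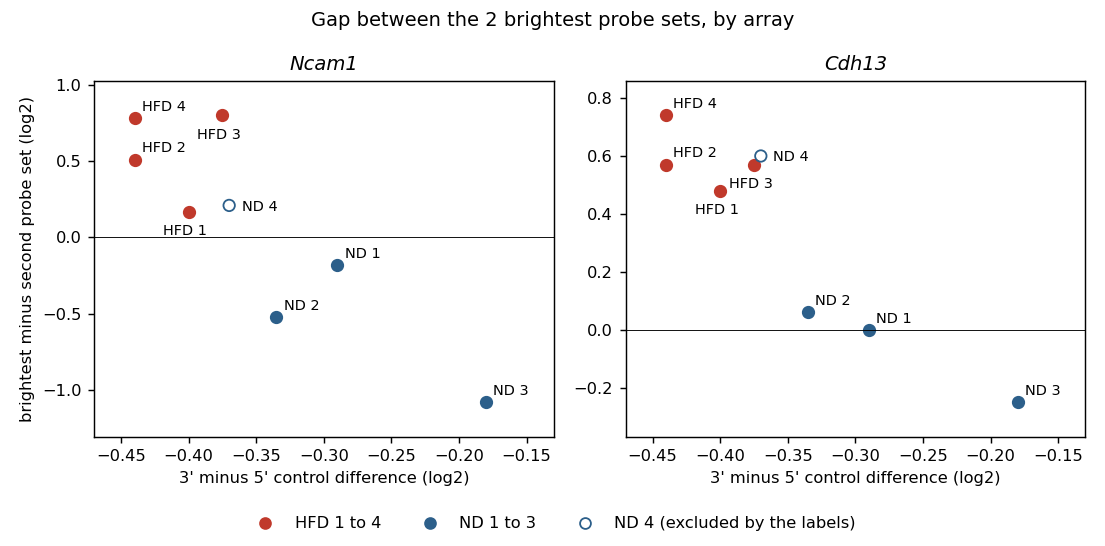
Gap in log2 expression between the brightest and the second brightest probe set of Ncam1 and Cdh13 (vertical axes) against the control difference, 3′ minus 5′, of Gapdh and Actb (horizontal axes, log2), 1 point per array, with ND 4 as an open point. HFD 1 to 4 and ND 4 lie at control differences of -0.44 to -0.37 with gaps above 0, and ND 3, at -0.18, has the lowest gap in both genes. HFD 3, nearest to 0 of the HFD arrays at -0.375, has the largest Ncam1 gap.

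Cdh11, or OB-cadherin, is the cadherin best known from fibroblasts and other mesenchymal cells, where it links neighbouring cells. Its brightest probe set (1450757_PM_at) stood at 7.81, 6.97, 7.05 and 7.10 in HFD 1 to 4, and at 8.04, 7.52 and 8.02 in ND 1 to 3. HFD 1 lay among the ND arrays, and the 3 other HFD arrays lay below all of ND 1 to 3. The difference was -0.63 (SE 0.20), and it did not pass the threshold over the 7 arrays. Without HFD 1 it was -0.82 and passed. ND 4, at 7.19, was nearer to the HFD mean. The other Cdh11 probe set was dim, at 4.57 to 4.91 in HFD and 4.58 to 4.79 in ND, and differed by 0.03 (SE 0.08).

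The arrays with low Cdh11 were also those with high keratinocyte markers. The mean of 19 keratinocyte genes was 6.48, 7.48, 7.20 and 7.10 in HFD 1 to 4, 6.85, 6.46 and 6.63 in ND 1 to 3, and 7.13 in ND 4. The 4 arrays above 7 were the 4 arrays with Cdh11 at 7.19 or below, and HFD 1, whose keratinocyte mean was in the ND range, had Cdh11 in the ND range. With the keratinocyte mean as a covariate the Cdh11 difference was -0.37. The sort excluded cells with EpCam on their surface, and Epcam, 1 of the 19 genes, was dim and nearly level, at 5.27 in HFD and 5.23 in ND. The largest differences of the 19 were those of Perp at 1.55 (SE 0.57), Dsp at 1.41 (SE 0.61) and Krt1 at 1.14 (SE 0.47). Others were nearly level, such as Itga6 at 0.04 (SE 0.08) and Trp63 at 0.10 (SE 0.18), and the median of the 19 was 0.22. None of the 19 passed the threshold, and Cdh3 alone was lower in HFD, at -0.03. The part of keratinocyte RNA in the Cdh11 values was not tested. Ncam2 stood at 6.19 in HFD 1, whose keratinocyte mean was 6.48, and at 7.59 in ND 4, whose mean was 7.13. With the same covariate the Ncam2 difference was -1.48 and no longer passed the threshold, and the part of keratinocyte RNA in it was not tested.

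**Figure D4:**
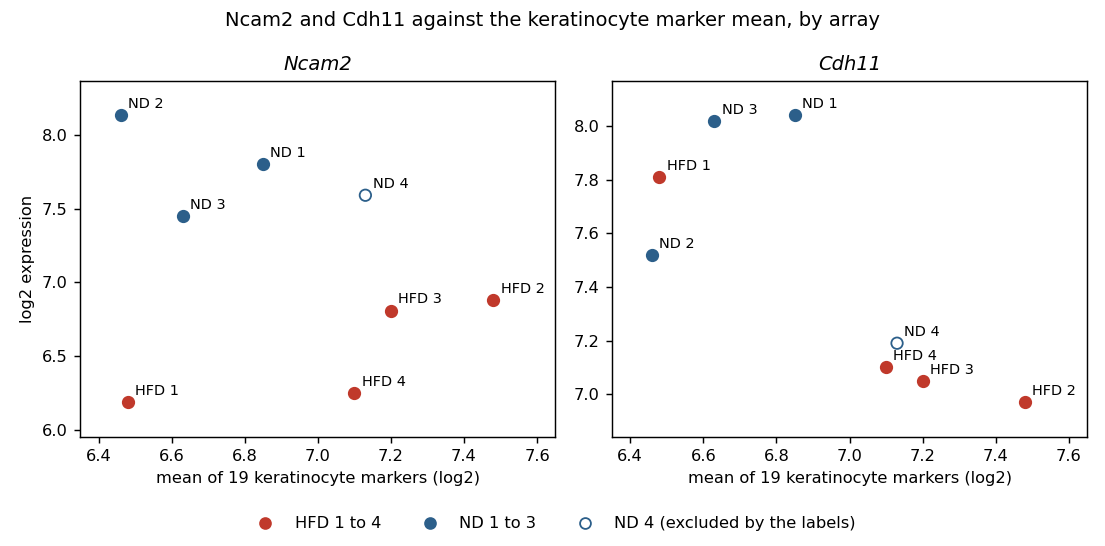
Log2 expression of Ncam2 and Cdh11 (vertical axes, brightest probe set) against the mean log2 expression of 19 keratinocyte markers (horizontal axes), 1 point per array, with ND 4 as an open point. Cdh11 is at 7.19 or below in the 4 arrays whose marker mean is above 7, and Ncam2 is at 6.19 in HFD 1, whose marker mean is 6.48.

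Cdh2, or N-cadherin, is a classical cadherin of nerve, muscle and many mesenchymal cells. Its brightest probe set read 4.49, 4.37, 4.44 and 4.48 in HFD 1 to 4, and 4.56, 4.42 and 4.46 in ND 1 to 3, a difference of -0.03 (SE 0.05). The 23 control probe sets named as nonspecific had means of 3.62 to 7.77 with a median of 4.32, and they differ in their content of G and C. A Cdh2 signal above background could not be shown at this level, and no difference between diets could be detected from it. The second Cdh2 probe set, with a mean of 3.90, differed by 0.01 (SE 0.04).

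Alcam, an immunoglobulin-family molecule that binds itself and the T cell receptor CD6, was also dim. Its brightest probe set read 5.38, 5.30, 5.40 and 5.71 in HFD 1 to 4, and 5.56, 5.42 and 5.33 in ND 1 to 3, a difference of 0.01 (SE 0.10) with the diets overlapping throughout. The other probe set, at a mean of 4.26, differed by -0.09 (SE 0.05). Alcam and Cdh2 were the 2 members below the median gene of 6.77.

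Vcam1, which holds white blood cells by the integrin of Itga4 and Itgb1, varied more between mice than the other members. Its single probe set (1451314_PM_a_at) stood at 7.51, 6.31, 7.71 and 7.66 in HFD 1 to 4, and at 6.48, 7.18 and 6.64 in ND 1 to 3, with ND 4 at 6.98. The 3 HFD arrays other than HFD 2 lay above every ND array, and HFD 2 lay below every ND array. The difference was 0.53 (SE 0.31) and did not pass the threshold. Without HFD 2 it was 0.86 and passed. HFD 2 also had the highest keratinocyte mean, at 7.48, and with that mean as a covariate the Vcam1 difference was 0.94 and did not pass. The part of keratinocyte RNA in it was not tested. The SD between arrays of the same diet was 0.56 log2 for Vcam1, larger than that of 99.7% of genes, where the median gene had 0.11. Ncam2 and Cdh11 followed with 0.35 each, larger than 98.4% of genes.

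Icam1, the docking site for the integrins of Itgb2, was bright and nearly level. Its probe set (1424067_PM_at) stood at 12.17, 12.11, 12.25 and 12.20 in HFD 1 to 4, and at 12.28, 12.20 and 12.30 in ND 1 to 3, a difference of -0.08 (SE 0.06) with the diets overlapping. The SD within diets was 0.06, and 13.4% of genes had a smaller one. Probe sets this bright, in a table whose top value is 13.5, can respond less than in proportion to RNA, and no scanner values were used to check for that. HFD 2 was the lowest array of both Vcam1, at 6.31, and Icam1, at 12.11.

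The Icam1 upstream region is shown because its known control by NF-kB bears on the cytokine genes below. The 250 bases before the annotated start lie at chr9:21015690-21015939 (GRCm38.p6, plus strand, RefSeq), with capitals marking GGAAATTCC, the letters of the NF-kB site known from the human gene:
Icam1 upstream region: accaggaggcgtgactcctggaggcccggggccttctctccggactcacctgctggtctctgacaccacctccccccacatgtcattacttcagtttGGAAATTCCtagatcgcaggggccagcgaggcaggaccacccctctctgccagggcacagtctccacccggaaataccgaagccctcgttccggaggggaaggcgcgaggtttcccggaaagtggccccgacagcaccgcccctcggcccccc
The motif was searched as GGAAATTCC and its reverse complement GGAATTTCC, and 94 of 32851 promoter entries of this length held it, or 0.286%. The Ncam2 and Alcam entries did not hold these letters in their windows. A match describes the sequence and shows no binding.

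Over all 7 arrays, the genes whose values were most like those of Ncam2 among 8282 genes at or above the median gene were the homeobox gene Hoxb2 (Pearson r = 0.99 with Ncam2, n = 7 arrays), Zfyve27 (r = 0.99), the ubiquitin ligase gene Arih2 (r = 0.98), the RNA helicase gene Ddx51 (r = 0.98) and Cabyr (r = 0.97). All 5 were lower in HFD, by -0.29, -0.40, -0.73, -0.50 and -0.32 log2, so the difference between diets is part of the likeness. In deviations from the diet means the closest were Osr2, Wdr18, Sirt3, the repressor gene Zeb2 and Hoxb2, each with r = 0.97. Hoxb2 was in both lists. These are descriptions over few arrays, which share the sort and the amplification, and they were picked as the highest of 8282 values.

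Other adhesion genes and partners of the members were followed in 10 lists with 153 measured genes. Of these, 6 were higher in HFD, 4 lower and 143 did not pass, so 6.54% were called, beside 5.35% of all genes. Over all 17097 genes, 3777 had an unadjusted p under 0.05 in limma. The counts at that level given below for single lists are to be read beside that number. ND 4 was nearer to the HFD mean in 8 of the 10 called genes. None of the 10 passed with ND 4 included, without HFD 3, without HFD 4, without ND 3, or with the control difference or the keratinocyte mean as a covariate. All 10 kept their sign in those fits. They were called on these same arrays with no overlap between diets, so the fits without an array could not change a sign.

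Among 36 other immunoglobulin-family adhesion molecules, 3 were higher, 0 lower and 33 did not pass, with a median of 0.01. In limma, 10 of the 36 had an unadjusted p under 0.05. Nectin2, which starts contacts that cadherins complete, stood at 7.20, 7.52, 7.50 and 7.40 in HFD 1 to 4 and at 6.60, 6.90 and 6.26 in ND 1 to 3, a rise of 0.82 (SE 0.14, limma adjusted p = 0.0227). Its other probe set differed by 0.07, and ND 4 was the highest array at 7.76. Nectin3, its binding partner, rose by 0.37 (SE 0.07, limma adjusted p = 0.0242), but its other 4 probe sets differed by -0.42, -0.10, -0.23 and 0.02. The junction molecule Jam3 rose by 0.33 (SE 0.08, limma adjusted p = 0.043), while its other probe set differed by -0.04.

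No other cadherin of 16 passed the threshold (0 in limma, with 2 at an unadjusted p under 0.05). Cdh4, or R-cadherin, had the smallest p, at 10.90, 10.88, 10.97 and 11.13 in HFD 1 to 4 and 11.26, 11.20 and 11.27 in ND 1 to 3, a difference of -0.27 (SE 0.08, limma adjusted p = 0.0668), with ND 4 below all of these at 10.82. Of 21 protocadherin, Fat, Celsr and calsyntenin genes, 1 passed: the giant cadherin Fat1 rose by 0.45 (SE 0.11, limma adjusted p = 0.0438), with 10.59 to 10.84 in HFD and 10.05 to 10.49 in ND. Of 14 catenins and other partners of cadherin tails, Jup, or plakoglobin, fell by 0.42 on the log2 scale (SE 0.10, limma adjusted p = 0.0428), and 13 did not pass. In limma, 4 of these 14 genes and 2 of the 21 in the protocadherin list had an unadjusted p under 0.05.

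None of 11 genes of NCAM polysialylation and signalling passed (0 in limma, and 0 at an unadjusted p under 0.05), and the smallest p was that of Gfra1, a receptor of glial cell line-derived factors that pairs with NCAM, which differed by 0.21 (SE 0.13, limma adjusted p = 0.381). Of 12 counter-receptors of Vcam1, Icam1 and Alcam and their membrane linkers, the integrin chain Itgb1 rose by 0.32 (SE 0.08, limma adjusted p = 0.0428) and 11 did not pass. In limma, 2 of the 12 had an unadjusted p under 0.05.

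Among 17 genes for proteases that cut adhesion molecules from the cell, for gamma-secretase and for their inhibitors, 0 were higher, 3 lower and 14 did not pass. In limma, 8 of the 17 had an unadjusted p under 0.05. Adam10, which cuts N-cadherin among many substrates, stood at 10.08, 9.93, 9.54 and 9.56 in HFD 1 to 4 and at 10.32, 10.49 and 10.87 in ND 1 to 3, and fell by 0.78 on the log2 scale (SE 0.16, limma adjusted p = 0.0309). Its other 2 probe sets went the other way, by 0.28 and 0.29, so the direction of Adam10 rests on the probe set. Ncstn, a gamma-secretase subunit, changed by -0.52 (SE 0.11, limma adjusted p = 0.0325), with -0.06 in its other probe set. Mmp14 changed by -0.29 (SE 0.07, limma adjusted p = 0.0374), with -0.17 in its other probe set.

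Of 15 genes of cytokine receptors and of NF-kB signalling, which include the NF-kB inhibitors Nfkbia, Nfkbib and Tnfaip3 and the kinase subunits Ikbkb and Ikbkg, the tumour necrosis factor receptor Tnfrsf1b rose by 0.74 (SE 0.14, limma adjusted p = 0.0253), with 9.02 to 9.32 in HFD and 8.07 to 8.61 in ND, and 14 did not pass. Its other probe set differed by 0.08. In limma, 7 of the 15 genes of this list had an unadjusted p under 0.05. None of the 4 measured genes of adiponectin and its receptors passed (1 had an unadjusted p under 0.05), with Adipor1 at -0.24 (SE 0.09, limma adjusted p = 0.154), and none of 7 mesenchymal transcription factors did (2 with an unadjusted p under 0.05), with Snai1, a repressor of cadherin genes, at -0.23 (SE 0.09, limma adjusted p = 0.176). For the 10 called genes of all these lists, 8 had other probe sets, and in 3 (Nectin3, Jam3 and Adam10) at least 1 of those had the opposite sign.

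**Figure D5:**
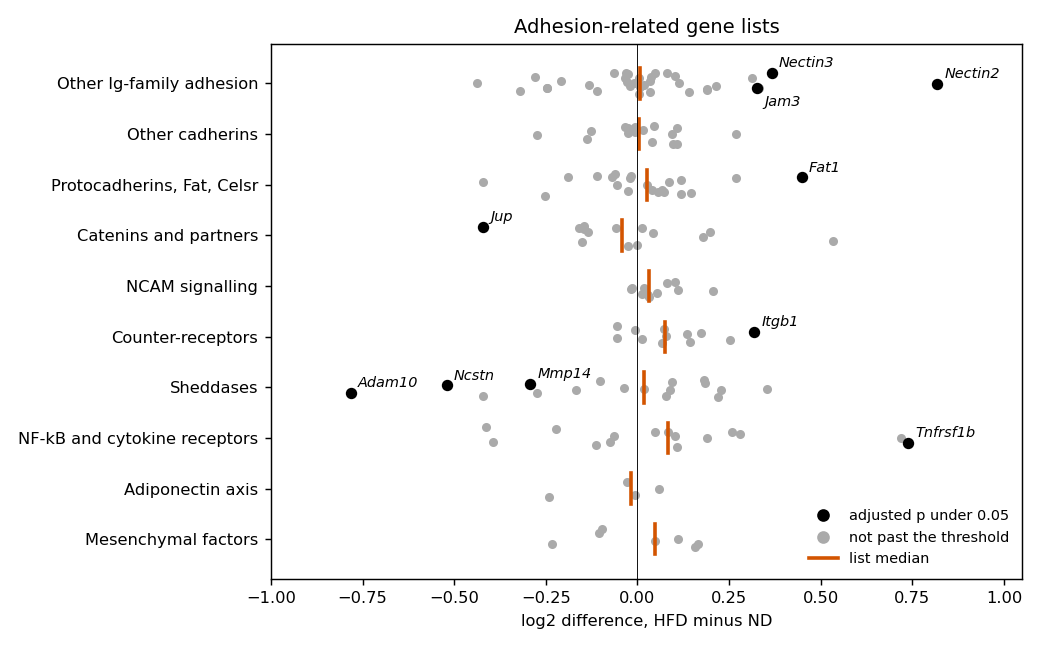
Difference in log2 expression, HFD minus ND (horizontal axis), for the measured genes of 10 adhesion-related lists (rows). Each point is a gene at its brightest probe set, black points passed the threshold and are named, and orange bars are list medians, which lie between -0.04 and 0.08.

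The sort was checked by its genes. Cd34 was bright, at 12.06 to 12.17 in HFD and 12.07 to 12.11 in ND, while Pdgfra read only 6.02 to 6.49 in HFD and 5.79 to 6.01 in ND. Ptprc, Kit, Cd24a and Epcam, for proteins the sort excluded, were below the median gene, Pecam1 was near it at 7.0 in HFD and 6.81 in ND, and none passed in limma (1 of the 7 genes of the sort, Pdgfra, had an unadjusted p under 0.05). Endothelial cells, which carry Vcam1 and Icam1, gave a list mean of 5.73 to 5.82 in HFD and 5.74 to 5.79 in ND over 12 markers, with 0 past the threshold and 0 at an unadjusted p under 0.05. Schwann cell and nerve markers, whose cells carry Ncam1 and Cdh2, averaged 6.78 to 6.92 in HFD and 6.86 to 6.89 in ND over 9 genes, of which Pmp22, also a fibroblast transcript, fell by 0.36 on the log2 scale (SE 0.06, limma adjusted p = 0.0224). Over 13 immune markers Tyrobp rose by 0.32 (SE 0.07, limma adjusted p = 0.0352) at a dim 5.92 in HFD and 5.60 in ND, and the list mean was 6.10 to 6.21 in HFD and 6.09 to 6.16 in ND. In the fibroblast list, Lum changed by -0.33 (SE 0.07, limma adjusted p = 0.0358) and 11 of 12 did not pass. An unadjusted p under 0.05 in limma was found for 2 of the 12 fibroblast, 2 of the 9 Schwann cell and nerve and 1 of the 13 immune markers. Of the 19 keratinocyte markers 18 had a higher mean in HFD, 0 passed and 4 had an unadjusted p under 0.05 in limma, with a median difference of 0.22. Over all 17097 genes, 3777 had an unadjusted p under 0.05 in limma, and the counts in the marker lists are to be read beside that. None of the mural, melanocyte, dermal papilla, adipocyte and skeletal muscle lists had a gene past the threshold in limma, with 1 melanocyte and 1 skeletal muscle gene at an unadjusted p under 0.05.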

How the data were processed

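RMA and affy are the tools named in the submitters' processing notes; the sources used here give neither version nor options. The deposited log2 values, made by the authors, cover 45141 probe sets and were used unscaled, since the quartiles of the 8 arrays agree within 0.04. A change in total RNA would not be visible. Names came from GEO's platform annotation (28898 with 1 symbol, 551 with several, 15588 unnamed), and symbols were updated by Entrez identifier for 28689 through a table of GRCm38.p6, used for names only. The brightest probe set over the 7 arrays stood for each of 17097 genes.

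HFD 1 to 4 were compared with ND 1 to 3 in limma 3.58.1 (R 4.3.3, lmFit, eBayes with trend), with Benjamini-Hochberg adjustment over all genes at 0.05. The fit was run on simulated data with known changes and independent noise for each gene. Those data held no factor shared by the genes of an array, so the run does not bear on how many genes passed here. Members and lists were chosen with earlier results of these data known. From each list up to 3 genes past the threshold were named by smallest p, or otherwise the 1 with the smallest p, besides genes of the sort and the 5 genes most like Ncam2. Of 168 list genes, 153 had a probe set naming only them. No 2 arrays were duplicates (SD of their difference 0.165 or more). Specimens were taken as separate mice. The deviations of ND and HFD arrays with the same specimen number were not positively correlated (-0.18, -0.29 and -0.05), so those arrays were not taken as pairs. The number of arrays limits the precision. The p-values set each difference against the spread between arrays of the same diet, moderated over genes. Alternatives were other sets of arrays, normalizations, moderations, probe set rules, covariates and a filter on dim genes. No background correction could be varied. Figures were drawn with matplotlib 3.10.9.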

Additional observations from a re-analysis of the deposited data

Results flagged for a closer look

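In 7 of 90 groups of 4 arrays examined, 1 array lay far from the other 3, with a gap to its nearest neighbour, as a share of the group's range, above Dixon's critical value for 4 values. Chance flags about 1 in 20 such groups. In Vcam1 this was HFD 2, at 0.857 of the range below the other HFD arrays. In Cdh11 it was HFD 1, at 0.845 above the others. The dimmest Ncam2 probe set had HFD 1 lowest (0.872), and the fourth Ncam1 probe set had HFD 4 highest (0.842). HFD 3 was lowest in Nectin3 (0.833). ND 4 was lowest in Cdh4 (0.844) and in Mmp14 (0.846).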

How the results depend on the processing

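The Ncam2 difference was negative in every setting run. When each array was left out it lay between -1.43 and -1.09. Its sign could not change there, because the diets did not overlap and the set was chosen by this fall. The difference was -1.71 with the 3′ minus 5′ control difference as a covariate, and -0.82 and -0.67 in the other Ncam2 probe sets. Which genes pass depended strongly on the arrays. The count over all genes was 914, and it was 1374 over every probe set, 1387 without dim genes, 400 with the mean of probe sets, 14 with the keratinocyte mean, 6 with all 8 arrays, 1 with the replicate block and 0 with the control difference as a covariate (604 at an unadjusted p under 0.05 in limma). Leaving out each array gave 6 to 1072, with 210, 6 and 9 without HFD 2, HFD 3 and HFD 4, and 485 and 11 without ND 2 and ND 3. Of the 8 members, 1 was called, with 0 to 2 when an array was left out: 2 without HFD 1 (Cdh11 added), HFD 2 (Vcam1 added) or ND 1 (Ncam1 added), and 0 without HFD 3, HFD 4 or ND 3. The members called were 0 with all 8 arrays, the replicate block or either covariate. The genes called in the 10 lists were 10, with 0 to 7 when an array was left out, 1 with the mean of probe sets, and 0 with all 8 arrays, the replicate block or either covariate. Of the other members, Ncam1 was 0.08, Cdh11 -0.22, Alcam -0.14 and Icam1 0.02 with the control difference as a covariate, Vcam1 was 0.94 and Cdh13 0.11 with the keratinocyte mean as a covariate, and Ncam1 was -0.12 and Cdh13 -0.06 with the mean of probe sets. By probe set in order of brightness after the first, Ncam1 gave -0.72, 0.04, -0.03, -0.52 and 0.07, Cdh13 -0.40, -0.14 and 0.06, and Cdh11 0.03. Nectin3 turned to -0.07 with the mean of probe sets. The cause of these shifts was not tested. Quantile normalization, median centring, robust moderation and moderation without trend kept the count over all genes within 855 to 937. Signal near the background limits Cdh2 and Alcam.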
